A study of Mus musculus with 8 samples.

Results

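Skeletal muscle cells sorted for surface fibroblast activation protein (FAP) were compared with FAP-negative mouse embryonic fibroblasts (MEFs) across all measured genes. The libraries were chosen by their labels, 2 of muscle FAP+ cells and 2 of MEFs, which are 4 of the 8 libraries of the series. The muscle cells were taken by flow sorting from dissociated skeletal muscle. The MEFs were embryonic cells sorted for absence of FAP, kept in culture for 3 passages and sorted again. FAP+ cells from visceral adipose tissue and from pancreas, 2 libraries each, entered the same fit. They shared in its gene filter and its estimate of spread, and showed where the muscle cells differed from other FAP+ cells. All 4 groups were sorted, amplified and sequenced as mouse RNA, and the cells were isolated in duplicate experiments. The labels give no strain, age or sex of the mice, no muscle of origin and no number of animals per library. A difference between muscle FAP+ cells and MEFs is therefore also a difference between tissue and culture and between the donors' stages, and these cannot be told apart here.

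FAP is a membrane-bound serine protease of the dipeptidyl peptidase family that marks a subset of stromal cells. In skeletal muscle the interstitial mesenchymal cells carry the receptor PDGFRα, lie between the fibres and around vessels, and are known as fibro-adipogenic progenitors. They lay down much of the matrix around fibres and secrete factors that act on satellite cells, the stem cells of muscle. MEFs are cycling embryonic fibroblasts of mixed body origin and a common reference for fibroblast biology.

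The muscle libraries held 15516319 and 22813325 estimated fragments and the MEF libraries 25433575 and 25155326. Levels are given per library as CPM (fragment counts scaled to a common library size with TMM factors), in the order of the duplicate experiments. A value in parentheses is the fitted log2 fold change of muscle over MEFs ± its standard error, with the Benjamini-Hochberg adjusted p over 14847 genes. With 2 libraries a group, p-values measure the spread between duplicate experiments, estimated over all 4 groups, adipose and pancreas included. Many named genes were picked as called members with large folds. Where libraries of such genes are said not to overlap, this describes the values and adds no support to the calls. Pearson r on log2 CPM across genes, which are not independent replicates, was 0.987 between the muscle libraries, 0.984 between the MEF libraries and 0.770 to 0.786 between muscle and MEFs. The actin-severing protein gelsolin took 10.9% and 14.8% of all fragments in muscle FAP+ cells, against 0.291% and 0.308% in MEFs. Muscle libraries carried Y-linked Ddx3y at 34.1 and 35.9 CPM with the X-inactivation transcript Xist at 0.383 and 0.172 CPM, and MEFs carried Ddx3y at 19.97 and 17.9 CPM with Xist at 12.8 and 0.0911 CPM. Only the first MEF library thus held Xist above 1 CPM, and the part of sex in the comparison was not tested.

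Muscle FAP+ cells and MEFs differed in 43.8% of the genes tested. Of 14847 genes, 3524 (23.7%) were higher in muscle FAP+ cells and 2976 (20.0%) were lower, so 54.2% of the calls were higher. On the authors' FPKM and RPKM scales that share was 27.3% to 39.5%, and with a minimum of 1 FPKM the median over all genes was at log2 -0.59, against 0.03 on the main scale. Directions near 0 therefore depend on the scaling. The number of calls also depended on the other groups in the fit. With muscle and MEF libraries alone, 4461 of 14080 genes were higher and 4168 lower, 61.3% in all. Without 1 library the counts higher and lower were 2319 and 1357 (first muscle library left out), 2115 and 1267 (second muscle), 2155 and 1687 (first MEF) and 2392 and 1879 (second MEF). Between the muscle libraries 1.74% of genes differed by more than 2-fold, and between the MEF libraries 2.42%.

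Several of the genes furthest above MEFs encode enzymes and secreted proteins. Inmt, which methylates indoles and other amines, was at 409 and 430.0 CPM in muscle, against 0.0900 and 0.0607 CPM in MEFs (log2 12.34 ± 0.77, adjusted p = 5.6e-05). Its MEF values rest on 5 fragments, at or below 3 fragments a library (0.0900 and 0.0911 CPM), so the size of this fold is uncertain. Entpd2, a cell surface enzyme that hydrolyses extracellular ATP, was at 364 and 544 CPM in muscle, against 0.360 and 0.0911 CPM in MEFs (log2 10.94 ± 0.67, adjusted p = 5.54e-05). Rarres2, which encodes the adipokine chemerin, was at 442 and 427 CPM in muscle, against 0.240 and 0.212 CPM in MEFs (log2 10.87 ± 0.84, adjusted p = 9.93e-05). In each of these the muscle libraries lay far above the MEF libraries. The muscle libraries were close together in Inmt and Rarres2 and less so in Entpd2, whose second MEF library was at the floor. Dmkn, which encodes the secreted protein dermokine, was at 902 and 289 CPM in muscle, against 0.120 and 0.455 CPM in MEFs (log2 10.99 ± 1.25, adjusted p = 0.000459), and here the muscle libraries themselves differed widely.

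The genes furthest below MEFs included a contractile gene and a growth factor carrier. Actg2, the smooth muscle gamma actin, was at 0.191 and 0.129 CPM in muscle, against 85.2 and 62.6 CPM in MEFs (log2 -8.85 ± 0.69, adjusted p = 0.000101). Igfbp2, a carrier of insulin-like growth factors, was at 0.128 and 0.129 CPM in muscle, against 84.2 and 51.1 CPM in MEFs (log2 -8.98 ± 1.11, adjusted p = 0.00067). Both were near the detection floor of 3 fragments in muscle, which equals 0.191 and 0.129 CPM. The carbonyl reductase gene Cbr2 was at 0.191 and 0.172 CPM in muscle, against 53.3 and 45.3 CPM in MEFs (log2 -8.05 ± 0.66, adjusted p = 0.000119). The urea transporter gene Slc14a1 was at 0.319 and 0.215 CPM in muscle, against 63.7 and 45.05 CPM in MEFs (log2 -7.68 ± 0.90, adjusted p = 0.000516). Cbr2 rests on 7 fragments in muscle and Slc14a1 on 10, so the sizes of these folds are uncertain.

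**Figure D1:**
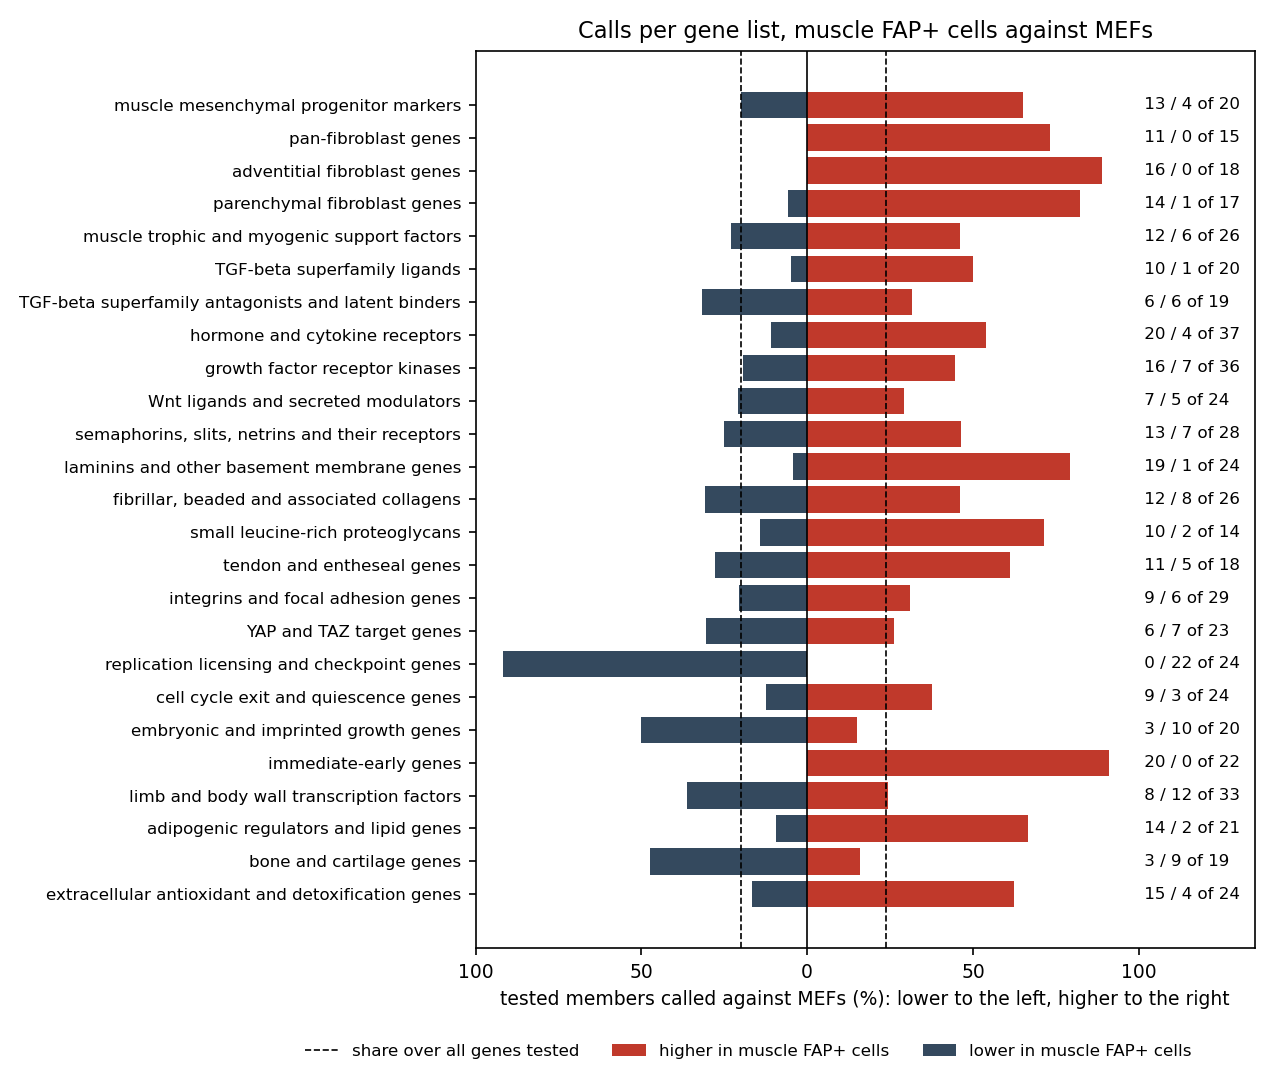
Share of tested members of each gene list called against MEFs, in percent, with members lower in muscle FAP+ cells to the left of 0 and members higher to the right. Dashed lines mark the share over all genes tested, 23.7% higher and 20.0% lower, and the numbers at the right give members higher, lower and tested. Immediate-early genes stand at 20 of 22 higher and replication genes at 22 of 24 lower.

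The label was checked against marker lists of stromal cells. Of 20 markers of muscle mesenchymal progenitors 13 were higher and 4 lower than in MEFs, beside 23.7% and 20.0% of all genes, with a median log2 fold change of 2.42 beside 0.03. Against adipose and pancreas FAP+ cells 0 were higher and 1 lower, beside 1.78% and 1.29% of all genes, with a median of 0.26. This list thus does not tell muscle from the other FAP+ cells. Fap was at 88.8 and 107 CPM in muscle, against 2.37 and 0.516 CPM in MEFs (log2 6.08 ± 0.67, adjusted p = 0.000397), and it is the gene whose product was sorted. Pdgfra was at 515 and 686 CPM in muscle, against 82.4 and 50.5 CPM in MEFs (log2 3.18 ± 0.43, adjusted p = 0.00102). Ly6a, which encodes the surface antigen Sca-1, was at 1630.5 and 1056 CPM in muscle, against 119 and 147 CPM in MEFs (log2 3.34 ± 0.47, adjusted p = 0.00115). These genes did not overlap between the groups.

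The transcription factors of the list moved in the same direction where they passed. Hic1, a repressor found in quiescent mesenchymal progenitors, was at 351 and 496 CPM in muscle, against 37.7 and 35.6 CPM in MEFs (log2 3.53 ± 0.37, adjusted p = 0.000326). Osr1, a zinc finger factor of developing muscle connective tissue, was at 170.1 and 122 CPM in muscle, against 33.4 and 36.8 CPM in MEFs (log2 2.06 ± 0.34, adjusted p = 0.00243). Tcf7l2, the Wnt pathway factor used to mark muscle fibroblasts, was at 298 and 362 CPM in muscle, against 147 and 189.5 CPM in MEFs and did not pass (log2 0.97, adjusted p = 0.0696). The muscle libraries were the higher in each of these genes. The angiopoietin receptor gene Tek, also an endothelial gene, was at 86.3 and 102 CPM in muscle, against 0.900 and 0.516 CPM in MEFs (log2 7.04 ± 0.45, adjusted p = 5.6e-05). Adam12, a metalloprotease, and Nt5e, the ectonucleotidase CD73, were lower, with log2 fold changes of -2.39 and -1.86.

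Of 15 genes shared by most fibroblasts 11 were higher and none lower, with a median of 1.88. Dcn, the proteoglycan decorin, was at 16527 and 17985 CPM in muscle, against 42.6 and 22.7 CPM in MEFs (log2 9.05 ± 0.60, adjusted p = 6.16e-05). Mfap5, a microfibril protein, was at 879 and 647 CPM in muscle, against 4.02 and 3.52 CPM in MEFs (log2 7.66 ± 0.42, adjusted p = 4.56e-05). Lum, which encodes lumican, was at 462 and 546 CPM in muscle, against 30.7 and 8.53 CPM in MEFs (log2 4.68 ± 0.64, adjusted p = 0.00103). Col1a1, the main chain of type I collagen, was at 2723 and 1717 CPM in muscle, against 1139 and 975 CPM in MEFs, without passing (log2 1.07, adjusted p = 0.313). Decorin and lumican thus separated the groups. Col1a1 did not overlap between muscle and MEFs either, but did not pass with the spread estimated over all 4 groups. Among these, the adipose libraries were at 14824 and 1765 CPM, and the part of that spread was not tested.

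Genes reported for fibroblasts around vessels and for those between fibres were both higher than in MEFs. Of 18 adventitial genes 16 were higher and none lower (median 4.16), and of 17 parenchymal genes 14 were higher and 1 lower (median 5.78). Cd55, a complement regulator of the adventitial list, was at 151 and 110.3 CPM in muscle, against 5.28 and 3.19 CPM in MEFs (log2 4.95 ± 0.39, adjusted p = 0.000109). Sema3c, a secreted semaphorin, was at 154 and 123 CPM in muscle, against 27.2 and 22.9 CPM in MEFs (log2 2.46 ± 0.40, adjusted p = 0.00229). The parenchymal gene Smoc2, a calcium-binding matrix protein, was at 1358 and 1949 CPM in muscle, against 157 and 172 CPM in MEFs (log2 3.33 ± 0.37, adjusted p = 0.000427), and Cxcl14, a chemokine, was at 314 and 587 CPM in muscle, against 10.3 and 6.16 CPM in MEFs (log2 5.78 ± 0.51, adjusted p = 0.000167). In the adventitial examples the first muscle library was the higher, and in the parenchymal examples the second. Hsd11b1, which regenerates active glucocorticoid, was at 213 and 278 CPM in muscle, against 0.270 and 0.243 CPM in MEFs (log2 9.87 ± 0.48, adjusted p = 4.44e-05). Apod, a lipid-carrying lipocalin, was at 225 and 276 CPM in muscle, against 0.300 and 0 CPM in MEFs (log2 10.65 ± 0.96, adjusted p = 0.000175). It rests on 10 fragments in MEFs, so the size of its fold is uncertain.

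The secreted factors that act on muscle changed in both directions. Of 26 trophic and myogenic support factors tested, 12 (46.2%) were higher and 6 (23.1%) lower than in MEFs, with a median of 1.09. The share lower was near the 20.0% of all genes, and the share higher lay above their 23.7%. Igf1, the growth factor that promotes muscle growth, was at 853 and 984 CPM in muscle, against 71.7 and 50.9 CPM in MEFs (log2 3.90 ± 0.36, adjusted p = 0.000201). The related Igf2, a fetal growth factor, was at 23.7 and 36.3 CPM in muscle, against 3339 and 3056 CPM in MEFs (log2 -6.73 ± 0.44, adjusted p = 6.16e-05). The groups did not overlap in either gene and the order of the groups was opposite. Il6, a cytokine released by many stromal cells, was at 83.998 and 52.8 CPM in muscle, against 0.180 and 0.212 CPM in MEFs (log2 8.41 ± 0.42, adjusted p = 4.44e-05), and Fgf18, a fibroblast growth factor, at 57.8 and 63.3 CPM in muscle, against 0.480 and 0.880 CPM in MEFs (log2 6.47 ± 0.45, adjusted p = 7.04e-05).

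Other factors with a role in muscle repair were lower or did not pass. Wisp1, a matricellular protein that acts on satellite cells in regeneration, was at 3.06 and 2.92 CPM in muscle, against 50.7 and 66.1 CPM in MEFs (log2 -4.29 ± 0.31, adjusted p = 8.22e-05). Ptn, the heparin-binding factor pleiotrophin, was at 2.61 and 3.86 CPM in muscle, against 266 and 120.4 CPM in MEFs (log2 -5.89 ± 0.53, adjusted p = 0.000184). Hgf, the ligand of the receptor Met and an activator of satellite cells, was at 0.446 and 0.386 CPM in muscle, against 3.60 and 2.16 CPM in MEFs (log2 -2.78 ± 0.52, adjusted p = 0.00415), a call lost without the second muscle library (adjusted p = 0.0508). In these genes each muscle library lay below each MEF library. Fst, which encodes follistatin, an inhibitor of activins and myostatin, was at 141 and 191 CPM in muscle, against 84.8 and 83.4 CPM in MEFs and missed the threshold (log2 0.98, adjusted p = 0.0631). Fgf7 was at 23.7 and 21.2 CPM in muscle, against 36.4 and 33.8 CPM in MEFs (log2 -0.65, adjusted p = 0.175), also short of it.

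Ligands of the TGF-beta superfamily, which regulate matrix production and differentiation, leaned upward. Of 20 tested, 10 were higher and 1 lower, with a median of 1.48. Gdf10, a BMP3-related ligand, was at 70.6 and 131 CPM in muscle, against 1.77 and 0.971 CPM in MEFs (log2 6.19 ± 0.50, adjusted p = 0.000119). Bmp6, a bone morphogenetic protein, was at 23.8 and 20.8 CPM in muscle, against 0.360 and 0.304 CPM in MEFs (log2 6.05 ± 1.06, adjusted p = 0.00314). Tgfb2 was at 53.8 and 61.6 CPM in muscle, against 26.4 and 23.3 CPM in MEFs (log2 1.22 ± 0.36, adjusted p = 0.028). Muscle exceeded MEFs in every library for these ligands. Gdf5, a joint-forming ligand, was lower at 0.319 and 0.0858 CPM in muscle, against 10.1 and 14.2 CPM in MEFs (log2 -5.98 ± 1.26, adjusted p = 0.00707). The size of this fold is uncertain, with 7 fragments in muscle. Gdf5, the lower member, did not pass without the second muscle library (adjusted p = 0.0801). Without any 1 of the muscle or MEF libraries Tgfb2 did not pass (adjusted p = 0.0923 to 0.143). Bmp4, a related bone morphogenetic protein, was at 66.3 and 77.4 CPM in muscle, against 49.5 and 48.96 CPM in MEFs and did not pass (log2 0.55, adjusted p = 0.251). Inhba, the subunit of activin A, was at 44.3 and 23.5 CPM in muscle, against 18.3 and 225 CPM in MEFs (log2 -1.85, adjusted p = 0.146), and its MEF libraries lay on either side of the muscle libraries. The myostatin gene Mstn, with 4 fragments in muscle and 2 in MEFs, was not tested.

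Antagonists and latent binders of the superfamily split evenly. The list is mostly of extracellular proteins but also holds an intracellular inhibitor among its called members. Of 19 tested, 6 were higher and 6 lower (31.6% each), beside 23.7% and 20.0% of all genes. Their median of 0.49 turned to between -0.08 and -0.19 on the FPKM and RPKM scales. Ltbp4, a latent TGF-beta binding protein of elastic fibres, was at 1654 and 1820.2 CPM in muscle, against 47.3 and 35.2 CPM in MEFs (log2 5.40 ± 0.59, adjusted p = 0.000398). Its relative Ltbp2 was at 4.78 and 2.57 CPM in muscle, against 337 and 271 CPM in MEFs (log2 -6.38 ± 0.46, adjusted p = 7.64e-05). The pair moved in opposite directions without overlap. Chrdl1, a BMP antagonist, was at 40.1 and 19.3 CPM in muscle, against 4.47 and 1.61 CPM in MEFs (log2 3.29 ± 0.60, adjusted p = 0.00367), and Nbl1, another BMP antagonist, at 305 and 296 CPM in muscle, against 23.9 and 29.2 CPM in MEFs (log2 3.50 ± 0.30, adjusted p = 0.000154). Grem1, the BMP antagonist gremlin, was at 0.191 and 0.129 CPM in muscle, against 5.43 and 41.3 CPM in MEFs (log2 -7.18 ± 1.14, adjusted p = 0.00199), with its MEF libraries far apart. It was at the floor in muscle, with 6 fragments, so the size of its fold is uncertain.

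**Figure D2:**
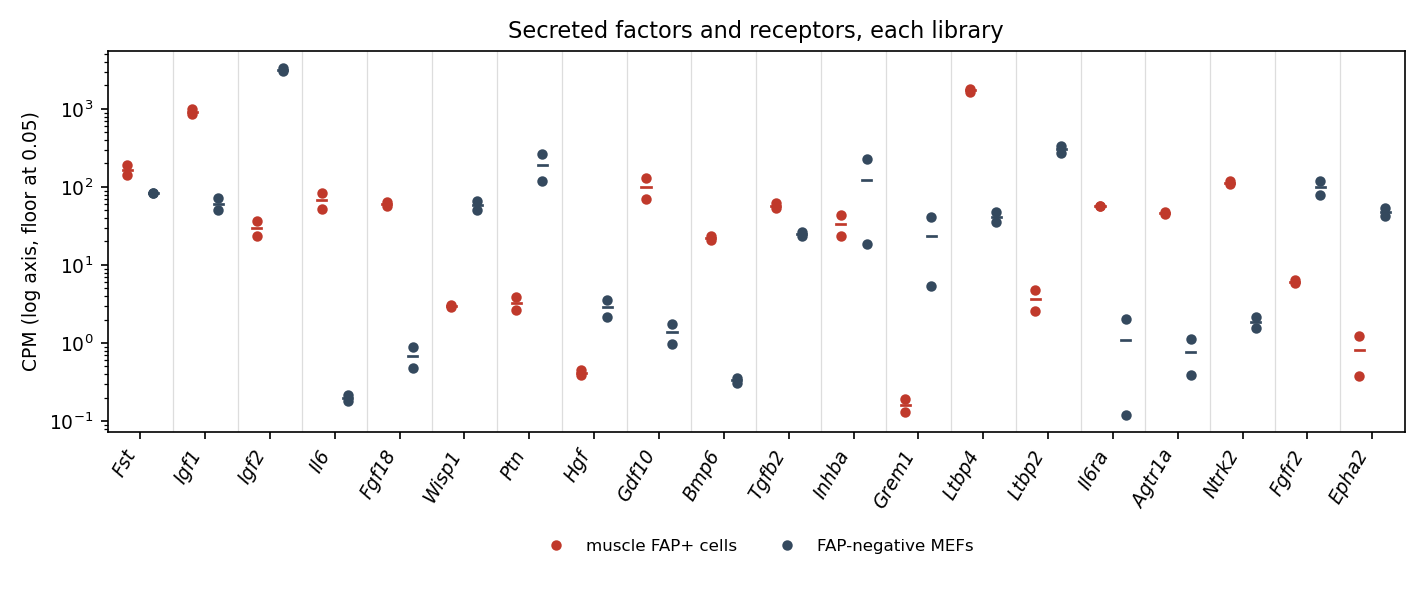
CPM of secreted factors and receptors on a log axis, with each point a library, muscle FAP+ cells left of MEFs and the bar at the mean of 2 libraries. Igf1 lies above and Igf2 below MEFs in both muscle libraries, and the MEF libraries of Inhba and Grem1 are spread.

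Receptors for circulating signals were more often higher than lower in muscle FAP+ cells. Of 37 hormone and cytokine receptors tested, 20 were higher and 4 lower (median 1.16). Il6ra, the ligand-binding chain of the interleukin-6 receptor, was at 56.8 and 57.6 CPM in muscle, against 0.120 and 2.03 CPM in MEFs (log2 5.73 ± 1.00, adjusted p = 0.00304). Nr3c1, the glucocorticoid receptor, was at 100.1 and 128 CPM in muscle, against 20.5 and 30.9 CPM in MEFs (log2 2.15 ± 0.42, adjusted p = 0.00522), with no call without the first MEF library (adjusted p = 0.0578) or on the FPKM scale (adjusted p = 0.0632 to 0.116). Neither overlapped between groups, though the MEF libraries differed in Il6ra. Agtr1a, an angiotensin II receptor, was at 47.3 and 45.2 CPM in muscle, against 1.14 and 0.395 CPM in MEFs (log2 5.90 ± 0.57, adjusted p = 0.000229). Il1rl1, the receptor of interleukin-33, was lower at 3.38 and 1.37 CPM in muscle, against 213 and 196 CPM in MEFs (log2 -6.45 ± 0.50, adjusted p = 0.000101), and Npr3, the clearance receptor of natriuretic peptides, at 4.08 and 2.27 CPM in muscle, against 30.9 and 24.8 CPM in MEFs (log2 -3.14 ± 0.50, adjusted p = 0.00211).

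Among 36 growth factor receptor kinases and serine kinase receptors 16 (44.4%) were higher and 7 (19.4%) lower (median 1.25). The share lower was near the 20.0% of all genes, and the share higher lay above their 23.7%. Tgfbr3, the co-receptor betaglycan, was at 248 and 217 CPM in muscle, against 20.7 and 14.1 CPM in MEFs (log2 3.74 ± 0.47, adjusted p = 0.000692). Egfr, the epidermal growth factor receptor, was at 242 and 239 CPM in muscle, against 37.6 and 27.7 CPM in MEFs (log2 2.88 ± 0.29, adjusted p = 0.000287). Ntrk2, the receptor of brain-derived neurotrophic factor, was at 118 and 109 CPM in muscle, against 2.13 and 1.58 CPM in MEFs (log2 5.93 ± 0.30, adjusted p = 4.44e-05). These receptors were above MEFs in every library. Acvrl1, a receptor of BMP9 and BMP10, was at 101 and 118 CPM in muscle, against 4.29 and 4.80 CPM in MEFs (log2 4.59 ± 0.34, adjusted p = 8.85e-05). Fgfr2 was lower at 5.80 and 6.44 CPM in muscle, against 121 and 78.9 CPM in MEFs (log2 -4.02 ± 0.52, adjusted p = 0.000768), and Epha2, an ephrin receptor, at 0.383 and 1.24 CPM in muscle, against 41.9 and 54.3 CPM in MEFs (log2 -5.82 ± 0.63, adjusted p = 0.000388).

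Wnt ligands and their secreted modulators differed by gene. Of 24 tested, 7 were higher and 5 lower (median 1.03), shares near the 23.7% and 20.0% of all genes. Sfrp2 and Sfrp4 encode secreted antagonists that bind Wnt proteins. Sfrp2 was at 256 and 152 CPM in muscle, against 53.97 and 29.6 CPM in MEFs (log2 2.29 ± 0.39, adjusted p = 0.00269) and Sfrp4 at 181 and 109 CPM in muscle, against 1.68 and 0.546 CPM in MEFs (log2 7.02 ± 0.62, adjusted p = 0.000161). Dkk2, an inhibitor of the LRP co-receptors, was at 96.8 and 127 CPM in muscle, against 10.05 and 15.5 CPM in MEFs (log2 3.13 ± 0.31, adjusted p = 0.000278). Wnt11 was at 91.6 and 90.9 CPM in muscle, against 2.88 and 2.61 CPM in MEFs (log2 5.05 ± 0.78, adjusted p = 0.00179) and Wnt2 at 55.7 and 23.5 CPM in muscle, against 2.22 and 1.61 CPM in MEFs (log2 4.36 ± 0.49, adjusted p = 0.000443), with the first muscle library of Wnt2 well above the second. The higher genes thus included Wnt ligands and Wnt antagonists. In the other direction, Wnt10a was at 0.319 and 0.772 CPM in muscle, against 30.3 and 35.8 CPM in MEFs (log2 -5.85 ± 0.92, adjusted p = 0.00194) and Dkk3 at 5.93 and 4.25 CPM in muscle, against 155 and 94.9 CPM in MEFs (log2 -4.62 ± 0.43, adjusted p = 0.000197).

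Guidance cues, first known from axon growth, also went both ways. Of 28 semaphorins, slits, netrins and receptors tested, 13 (46.4%) were higher and 7 (25%) lower, beside 23.7% and 20.0% of all genes. The share lower was thus near that of all genes. Their median of 1.40 turned to -0.11 on the RPKM scale. Slit3 was at 152 and 164 CPM in muscle, against 14.8 and 9.62 CPM in MEFs (log2 3.70 ± 0.32, adjusted p = 0.000159), whereas its paralogue Slit2, also a ligand of Robo receptors, was at 0.638 and 0.686 CPM in muscle, against 34.3 and 28.8 CPM in MEFs (log2 -5.56 ± 0.67, adjusted p = 0.000611). Ntn1, which encodes netrin-1, was at 148 and 146 CPM in muscle, against 8.88 and 6.71 CPM in MEFs (log2 4.24 ± 0.29, adjusted p = 6.64e-05). The netrin receptor gene Unc5c was at 0.191 and 0.215 CPM in muscle, against 21.98 and 26.2 CPM in MEFs (log2 -6.84 ± 0.42, adjusted p = 5.54e-05). Unc5c rests on 8 fragments in muscle, so the size of its fold is uncertain. Ligand and receptor thus differed in opposite directions. Sema3b was at 236 and 164 CPM in muscle, against 20.2 and 14.995 CPM in MEFs (log2 3.51 ± 0.31, adjusted p = 0.000173), and Sema3a, a repellent of axons, at 5.74 and 2.32 CPM in muscle, against 118 and 76.2 CPM in MEFs (log2 -4.61 ± 0.66, adjusted p = 0.00126).

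Basement membrane genes were among the most uniform of the matrix lists. Laminins are trimers of an alpha, a beta and a gamma chain, and the alpha 2 chain is the one that muscle fibres lack in merosin-deficient dystrophy. Of 24 tested, 19 were higher and 1 lower (median 2.50). By FPKM, a level per transcript length, Lamb2 averaged 140.4 FPKM in muscle and 20.2 FPKM in MEFs, and Lamc1 92.1 FPKM in muscle and 10.9 FPKM in MEFs. The beta 1 chain gene Lamb1 averaged 78.4 FPKM in muscle and 26.2 FPKM in MEFs, Lama4 62.4 FPKM in muscle and 7.14 FPKM in MEFs, and Lama2 46.1 FPKM in muscle and 0.568 FPKM in MEFs (n = 2 each). By this measure the beta and gamma chains named stood above the alpha chains named in muscle. The gap was small between Lamb1 and Lama4, at 72.3 and 65.0 FPKM in the first muscle library. The RNA was amplified from poly(A) tails, so this order of different genes is uncertain. In CPM, Lama2 was at 353 and 432 CPM in muscle, against 3.60 and 2.61 CPM in MEFs (log2 6.98 ± 0.38, adjusted p = 4.56e-05), and Lama4, an alpha chain of vessels, at 354 and 311 CPM in muscle, against 31.5 and 16.9 CPM in MEFs (log2 3.78 ± 0.39, adjusted p = 0.000298). Lamc1, the gamma 1 chain, was at 611 and 622 CPM in muscle, against 52.2 and 41.6 CPM in MEFs (log2 3.72 ± 0.33, adjusted p = 0.000171). The chains named were above MEFs in both muscle libraries, except Lama5, an alpha chain of epithelia and vessels, at 0.829 and 3.78 CPM in muscle, against 34.96 and 33.7 CPM in MEFs (log2 -3.86 ± 0.84, adjusted p = 0.00838), which did not pass without the first muscle library (adjusted p = 0.0524). Col4a4, a type IV collagen chain, was at 22.6 and 44.7 CPM in muscle, against 0.0600 and 0.182 CPM in MEFs (log2 8.06 ± 0.61, adjusted p = 8.87e-05). It rests on 8 fragments in MEFs, so the size of its fold is uncertain. Col15a1, which links basement membranes to fibrils, was at 141 and 253 CPM in muscle, against 1.77 and 1.49 CPM in MEFs (log2 6.91 ± 0.61, adjusted p = 0.000167).

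Collagens divided by type. Of 26 tested, 12 (46.2%) were higher and 8 (30.8%) lower (median 1.32), beside 23.7% and 20.0% of all genes. Col14a1, a fibril-associated collagen, was at 351 and 227 CPM in muscle, against 3.54 and 1.58 CPM in MEFs (log2 6.82 ± 0.57, adjusted p = 0.000135). Col5a3, a minor fibrillar chain, was at 388 and 548 CPM in muscle, against 16.6 and 10.1 CPM in MEFs (log2 5.14 ± 0.56, adjusted p = 0.000395). Col6a3, of the beaded filaments around muscle fibres, was at 1764 and 2214 CPM in muscle, against 575 and 490.0 CPM in MEFs (log2 1.90 ± 0.32, adjusted p = 0.00273). Those lower include collagens of cartilage. Col10a1, of hypertrophic cartilage, was at 0.128 and 0.172 CPM in muscle, against 26.8 and 31.8 CPM in MEFs (log2 -7.53 ± 0.39, adjusted p = 4.45e-05). Col11a1, a fibril-nucleating chain, was at 2.49 and 4.20 CPM in muscle, against 201 and 138 CPM in MEFs (log2 -5.65 ± 0.42, adjusted p = 8.77e-05), and Col12a1, a fibril-associated collagen, at 37.1 and 36.9 CPM in muscle, against 359 and 204 CPM in MEFs (log2 -2.93 ± 0.37, adjusted p = 0.000707). These lower genes did not overlap between the groups, though Col10a1 rests on 6 fragments in muscle, so the size of its fold is uncertain.

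**Figure D3:**
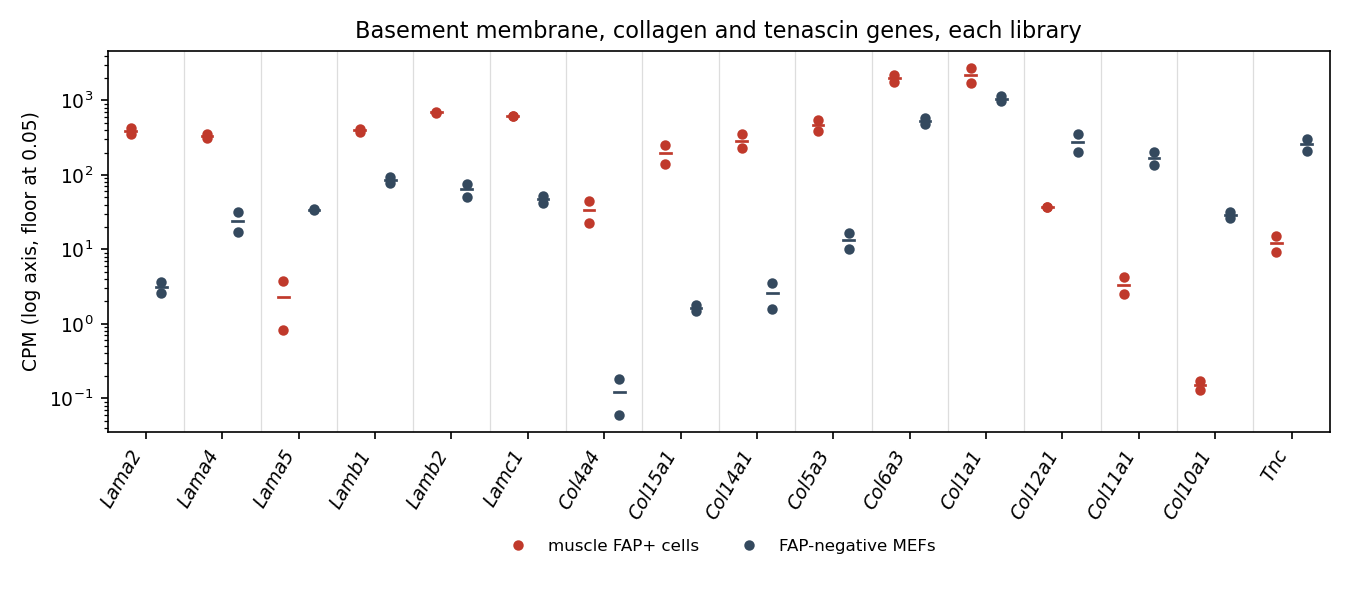
CPM of basement membrane, collagen and tenascin genes on a log axis, with each point a library, muscle FAP+ cells left of MEFs and the bar at the mean of 2 libraries. Lama2 and Col14a1 are above MEFs in both muscle libraries, Col11a1 and Col12a1 below, and Col1a1 closer.

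Small leucine-rich proteoglycans, which bind collagen fibrils, were higher in 10 of 14 tested and lower in 2 (median 3.56). Ogn, which encodes mimecan, was at 635 and 515 CPM in muscle, against 139.6 and 71.6 CPM in MEFs (log2 2.45 ± 0.40, adjusted p = 0.00219). Fmod, the fibromodulin of tendon, was at 80.3 and 137 CPM in muscle, against 60.8 and 31.2 CPM in MEFs (log2 1.24 ± 0.40, adjusted p = 0.0381). Bgn, which encodes biglycan, was lower at 633 and 634 CPM in muscle, against 1399 and 1269 CPM in MEFs (log2 -1.07 ± 0.29, adjusted p = 0.0185). Decorin and biglycan, close relatives, thus moved in opposite directions, although Bgn did not pass without any 1 of the muscle or MEF libraries (adjusted p = 0.0568 to 0.113) and Fmod did not pass without either muscle library (adjusted p = 0.052 and 0.258), the second MEF library (adjusted p = 0.181) or either pancreas library (adjusted p = 0.0589 and 0.0664), with no filter (adjusted p = 0.052), or on the FPKM and RPKM scales (adjusted p = 0.201 to 0.403). Chad, the cartilage and tendon protein chondroadherin, was at 16.4 and 23.5 CPM in muscle, against 0.0600 and 0.0607 CPM in MEFs (log2 8.24 ± 1.04, adjusted p = 0.000719). With 4 fragments over both MEF libraries, it lay below the floor there and the size of its fold is uncertain.

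Tendon genes were split against MEFs. Of 18 tested, 11 (61.1%) were higher and 5 (27.8%) lower (median 1.42), beside 23.7% and 20.0% of all genes. Thbs4, a thrombospondin of tendon and muscle attachments, was at 242 and 196 CPM in muscle, against 82.3 and 80.4 CPM in MEFs (log2 1.43 ± 0.31, adjusted p = 0.00804), and Comp, which organises collagen fibrils, at 119 and 57.9 CPM in muscle, against 38.8 and 27.6 CPM in MEFs (log2 1.41 ± 0.38, adjusted p = 0.0183). Cilp, a matrix protein of cartilage and interstitial fibroblasts, was at 364 and 276 CPM in muscle, against 0.360 and 0.304 CPM in MEFs (log2 9.89 ± 0.50, adjusted p = 4.44e-05). In Cilp the MEF libraries were near the floor, whereas the calls of Thbs4 and Comp were lost on the FPKM scale (adjusted p = 0.0677 to 0.224 and 0.172 to 0.294), without the first muscle library (adjusted p = 0.0624 and 0.155), without the first MEF library (adjusted p = 0.0621 and 0.0618) and without the second (adjusted p = 0.0542 and 0.117). The tendon transcription factor Scx was lower at 3.13 and 4.55 CPM in muscle, against 58.8 and 84.3 CPM in MEFs (log2 -4.21 ± 0.69, adjusted p = 0.00227), and Tnc, tenascin C, at 15.1 and 9.22 CPM in muscle, against 303 and 210.2 CPM in MEFs (log2 -4.40 ± 0.43, adjusted p = 0.000252). Tnmd, the tendon surface protein tenomodulin, was at 25.8 and 19.9 CPM in muscle, against 40.5 and 25.5 CPM in MEFs and did not pass (log2 -0.53, adjusted p = 0.255).

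Adhesion genes showed no common direction. Of 29 integrins and focal adhesion genes 9 were higher (31.0%) and 6 lower (20.7%), shares near the 23.7% and 20.0% of all genes. Their median of 0.45 turned to between -0.10 and -0.48 on the FPKM and RPKM scales. Itgb7, a beta chain better known from lymphocytes, was at 98.9 and 50.3 CPM in muscle, against 2.07 and 2.85 CPM in MEFs (log2 4.92 ± 0.51, adjusted p = 0.000316). Itga9 was at 81.3 and 86.96 CPM in muscle, against 8.25 and 5.37 CPM in MEFs (log2 3.63 ± 0.40, adjusted p = 0.000409). Actn1, the actin cross-linker of focal adhesions, was lower at 5.23 and 5.32 CPM in muscle, against 134 and 164 CPM in MEFs (log2 -4.82 ± 0.30, adjusted p = 5.6e-05). Of 23 genes listed as targets of the mechanosensitive regulators YAP and TAZ, 6 were higher (26.1%) and 7 lower (30.4%), with a median of -0.27. The share higher was again near that of all genes. Axl, a receptor kinase, was at 2567 and 2315 CPM in muscle, against 475 and 449 CPM in MEFs (log2 2.40 ± 0.35, adjusted p = 0.00135), while Ankrd1 was at 0.574 and 0.172 CPM in muscle, against 14.5 and 16.998 CPM in MEFs (log2 -5.47 ± 0.68, adjusted p = 0.000686). Ctgf, a classical target, was at 192 and 141 CPM in muscle, against 327 and 315 CPM in MEFs and did not pass (log2 -0.95, adjusted p = 0.149).

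Genes that license and fire replication origins were lower almost throughout. The Mcm proteins form the helicase that is loaded onto origins before S phase, and E2F factors drive these genes in cycling cells. Of 24 genes 22 were lower, none was higher, and the median was -3.42. Mcm5 was at 5.23 and 4.25 CPM in muscle, against 83.1 and 85.1 CPM in MEFs (log2 -4.15 ± 0.37, adjusted p = 0.000168), and Mcm6, another helicase subunit chosen after its values were seen, at 15.5 and 14.2 CPM in muscle, against 155 and 129.9 CPM in MEFs (log2 -3.26 ± 0.25, adjusted p = 9.01e-05). Cdc6, which loads the helicase, was at 5.49 and 7.76 CPM in muscle, against 31.9 and 28.4 CPM in MEFs (log2 -2.18 ± 0.34, adjusted p = 0.00181). Ccne1, the cyclin of S phase entry, was at 0.829 and 1.20 CPM in muscle, against 48.01 and 51.8 CPM in MEFs (log2 -5.59 ± 0.37, adjusted p = 6.16e-05). Every muscle library lay below every MEF library in these genes. The members that did not pass were E2f1, at 17.7 and 16.3 CPM in muscle, against 15.4 and 19.7 CPM in MEFs (log2 -0.04, adjusted p = 0.908), and E2f2, at 1.79 and 1.16 CPM in muscle, against 1.65 and 2.49 CPM in MEFs (log2 -0.50, adjusted p = 0.384), both E2F factors. In bulk libraries fewer cycling cells and less transcript per cell cannot be told apart.

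Promoter windows of Mcm5 and Mcm6 are shown because both genes of the same complex differed alike and hold the E2F-type letters TTTNNCGC. The sequences are from RefSeq, build GRCm38.p6, 5′ to 3′ on the gene's strand, from 250 bases before to 50 after the gene start, with capitals on each match on either strand. The build listed in the submitters' processing notes is mm9, so these coordinates are not of that build. Mcm5 lies at chr8:75109259-75109558 on the plus strand with 2 overlapping matches, and Mcm6 at chr1:128359656-128359955 on the minus strand with 3 matches.
Mcm5: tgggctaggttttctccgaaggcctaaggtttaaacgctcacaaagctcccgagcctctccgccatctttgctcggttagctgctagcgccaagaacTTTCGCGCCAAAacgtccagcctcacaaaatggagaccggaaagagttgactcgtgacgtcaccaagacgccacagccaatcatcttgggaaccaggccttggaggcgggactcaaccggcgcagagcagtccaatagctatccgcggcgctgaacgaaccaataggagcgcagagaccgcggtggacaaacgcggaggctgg
Mcm6: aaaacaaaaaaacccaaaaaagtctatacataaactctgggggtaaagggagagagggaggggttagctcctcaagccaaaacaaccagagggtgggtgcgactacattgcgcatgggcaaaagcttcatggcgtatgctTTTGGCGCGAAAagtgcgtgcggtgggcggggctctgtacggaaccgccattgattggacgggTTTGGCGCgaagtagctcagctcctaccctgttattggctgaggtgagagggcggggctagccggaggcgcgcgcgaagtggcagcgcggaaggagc
Of 24 replication genes 19 matched a window, and 10 of these (52.6%) held TTTNNCGC, which was found in 5.93% of 27025 genes with a window. A match describes these letters only and shows no binding.

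Genes of cell cycle exit did not mirror this. Of 24 tested, 9 were higher and 3 lower (median 0.75). Klf4, a factor of growth arrest and of early response, was at 1993 and 1860.3 CPM in muscle, against 38.1 and 50.5 CPM in MEFs (log2 5.44 ± 0.38, adjusted p = 7.1e-05), and Klf2, its relative, at 893 and 1066 CPM in muscle, against 19.1 and 16.6 CPM in MEFs (log2 5.78 ± 0.36, adjusted p = 5.54e-05). Cdkn1c, the imprinted inhibitor p57, was at 489 and 508 CPM in muscle, against 174 and 96.5 CPM in MEFs (log2 1.88 ± 0.39, adjusted p = 0.00657). Txnip, an inhibitor of thioredoxin and of glucose uptake, was at 582 and 648 CPM in muscle, against 93.4 and 74.03 CPM in MEFs (log2 2.88 ± 0.42, adjusted p = 0.00146). All were above MEFs in both muscle libraries. The inhibitor genes Cdkn2a and Cdkn2b went the other way. Cdkn2a, which encodes p16 and p19ARF, was at 0.574 and 0 CPM in muscle, against 14.6 and 39.2 CPM in MEFs (log2 -6.72 ± 1.08, adjusted p = 0.00218). It rests on 9 fragments in muscle, so the size of its fold is uncertain. Cdkn2b was at 0.574 and 1.37 CPM in muscle, against 48.997 and 43.9 CPM in MEFs (log2 -5.53 ± 0.45, adjusted p = 0.000119).

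Fetal growth genes were lower more often than higher. Of 20 tested, 3 were higher and 10 lower (median -2.21). Igf2bp1 and Igf2bp3 encode RNA-binding proteins of embryonic tissue. Igf2bp1 was at 0.319 and 0.257 CPM in muscle, against 18.6 and 53.97 CPM in MEFs (log2 -6.97 ± 0.82, adjusted p = 0.000532), and Igf2bp3 at 0.893 and 0.472 CPM in muscle, against 38.7 and 39.2 CPM in MEFs (log2 -5.86 ± 0.43, adjusted p = 8.22e-05). Dlk1, an imprinted inhibitor of adipogenesis, was at 20.98 and 61.8 CPM in muscle, against 1064 and 945 CPM in MEFs (log2 -4.60 ± 0.54, adjusted p = 0.000526), and Mest at 17.9 and 32.1 CPM in muscle, against 427 and 161 CPM in MEFs (log2 -3.55 ± 0.58, adjusted p = 0.00234). Imprinted genes did not share a direction, since Meg3, an imprinted non-coding RNA that lies beside Dlk1, was higher at 5973 and 6701 CPM in muscle, against 1779 and 3115 CPM in MEFs (log2 1.37 ± 0.44, adjusted p = 0.0375). Its call was lost without the first MEF library (adjusted p = 0.193), either muscle library (adjusted p = 0.108 and 0.149) or either pancreas library (adjusted p = 0.0694 and 0.0708), with the replicate number as a block (adjusted p = 0.0545), and on the FPKM scale (adjusted p = 0.0809 to 0.110). Ndn, which encodes necdin, was higher at 222 and 244 CPM in muscle, against 80.7 and 81.9 CPM in MEFs (log2 1.52 ± 0.24, adjusted p = 0.00201).

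Immediate-early genes are transcribed within minutes of a stimulus without new protein, and enzymatic dissociation of tissue is known to induce them. Of 22 tested, 20 were higher and none lower (median 4.75). Junb was at 3104 and 2870.0 CPM in muscle, against 73.9 and 109 CPM in MEFs (log2 5.03 ± 0.63, adjusted p = 0.000721), and Fosb at 544 and 909 CPM in muscle, against 1.62 and 2.61 CPM in MEFs (log2 8.42 ± 0.56, adjusted p = 6.31e-05). Atf3, a stress-responsive factor, was at 519 and 755 CPM in muscle, against 1.77 and 1.52 CPM in MEFs (log2 8.59 ± 0.48, adjusted p = 5.04e-05). Zfp36, which destabilises cytokine transcripts, was at 921 and 1159 CPM in muscle, against 13.4 and 9.11 CPM in MEFs (log2 6.53 ± 0.41, adjusted p = 5.6e-05). Both muscle libraries were far above both MEF libraries in these genes. Fosl1 was at 6.76 and 2.87 CPM in muscle, against 6.57 and 12.2 CPM in MEFs and did not pass (log2 -0.98, adjusted p = 0.181). The muscle cells came through tissue dissociation, and the part of that step was not tested. Adipose and pancreas FAP+ cells held Atf3 at 1154 and 831 CPM in adipose and 528 and 372 CPM in pancreas. These groups share dissociation, tissue origin and sorting for FAP with muscle, so their values cannot tell these apart.

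Promoter windows of Fos and Atf3 are shown because they hold TGACGT, the core of the cyclic AMP response element, close to the start. Fos was at 4644 and 6169 CPM in muscle, against 27.6 and 26.4 CPM in MEFs (log2 7.64 ± 0.47, adjusted p = 5.54e-05). Capitals mark the match, which may lie on either strand, and source, build and window are as for the Mcm genes. Fos lies at chr12:85473640-85473939 on the plus strand with the match 66 bases before the start, and Atf3 at chr1:191183284-191183583 on the minus strand with the match 8 bases before it.
Fos: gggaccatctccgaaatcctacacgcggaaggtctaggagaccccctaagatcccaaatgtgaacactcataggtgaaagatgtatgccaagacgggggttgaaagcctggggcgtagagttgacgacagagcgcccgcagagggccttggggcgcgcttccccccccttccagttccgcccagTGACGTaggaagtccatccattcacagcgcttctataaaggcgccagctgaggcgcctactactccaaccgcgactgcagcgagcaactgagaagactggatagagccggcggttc
Atf3: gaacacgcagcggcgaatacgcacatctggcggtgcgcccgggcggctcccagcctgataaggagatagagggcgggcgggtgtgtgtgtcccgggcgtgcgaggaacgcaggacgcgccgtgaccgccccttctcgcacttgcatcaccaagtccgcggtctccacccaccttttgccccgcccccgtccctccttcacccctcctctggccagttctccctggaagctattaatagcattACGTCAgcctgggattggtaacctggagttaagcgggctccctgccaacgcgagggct
Of 22 immediate-early genes 17 matched a window, and 6 of these (35.3%) held TGACGT, against 8.37% of 27025 genes. Of the replication genes, lower in muscle, 7 of 19 (36.8%) held it too, so the letters did not separate the lists.

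Transcription factors of limb and body wall were mixed against MEFs. Of 33 tested, 8 were higher (24.2%) and 12 lower (36.4%), beside 23.7% and 20.0% of all genes, with a median of -0.58. Shox2, a factor of proximal limb growth, was at 47.01 and 57.01 CPM in muscle, against 3.84 and 10.3 CPM in MEFs (log2 2.88 ± 0.46, adjusted p = 0.00207), and Meox2, a homeobox factor of limb muscle development, at 43.1 and 56.7 CPM in muscle, against 11.5 and 7.77 CPM in MEFs (log2 2.37 ± 0.34, adjusted p = 0.00135). Msx1, a homeobox factor of limb mesenchyme, was at 51.7 and 61.4 CPM in muscle, against 2.999 and 2.76 CPM in MEFs (log2 4.29 ± 0.41, adjusted p = 0.000215). These homeobox genes were above MEFs in both muscle libraries. Foxd1, a forkhead factor, was lower at 0.893 and 0.729 CPM in muscle, against 26.3 and 19.8 CPM in MEFs (log2 -4.83 ± 0.35, adjusted p = 8.22e-05). Tbx15, a T-box factor of limb and trunk, was at 27.4 and 29.04 CPM in muscle, against 53.05 and 37.6 CPM in MEFs and did not pass (log2 -0.68, adjusted p = 0.0717).

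Genes of fat differentiation were mostly higher, with the central regulator among the exceptions. Of 21 tested, 14 were higher and 2 lower (median 2.67). Ebf2, a factor of adipose precursors, was at 155 and 156 CPM in muscle, against 5.70 and 6.04 CPM in MEFs (log2 4.73 ± 0.40, adjusted p = 0.000145), and Cebpd, an early adipogenic factor, at 1046 and 1282 CPM in muscle, against 30.7 and 24.9 CPM in MEFs (log2 5.39 ± 0.37, adjusted p = 6.88e-05). Pparg, the nuclear receptor that commits cells to fat, was lower at 3.32 and 5.41 CPM in muscle, against 14.8 and 20.4 CPM in MEFs (log2 -2.001 ± 0.32, adjusted p = 0.00209). Cebpa was at 11.03 and 17.5 CPM in muscle, against 7.53 and 6.16 CPM in MEFs and did not pass (log2 1.06, adjusted p = 0.19).

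Bone and cartilage genes were lower in 9 of 19 tested and higher in 3 (median -1.36). Acan, the cartilage proteoglycan aggrecan, was at 0.765 and 0.257 CPM in muscle, against 31.97 and 32.9 CPM in MEFs (log2 -6.05 ± 0.72, adjusted p = 0.000566). Runx2, the osteoblast regulator, was at 12.3 and 14.1 CPM in muscle, against 40.001 and 48.1 CPM in MEFs (log2 -1.74 ± 0.25, adjusted p = 0.00128). Sox9, the chondrocyte regulator, was at 7.21 and 19.3 CPM in muscle, against 23.2 and 45.2 CPM in MEFs and did not pass (log2 -1.36, adjusted p = 0.0858). Of these only Acan and Runx2 passed, each with no overlap. Alpl, the alkaline phosphatase of bone, was higher at 17.1 and 41.7 CPM in muscle, against 1.74 and 0.577 CPM in MEFs (log2 4.66 ± 0.62, adjusted p = 0.000938), and Matn4, a matrilin, at 34.7 and 16.8 CPM in muscle, against 3.06 and 1.61 CPM in MEFs (log2 3.46 ± 0.55, adjusted p = 0.00199).

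Antioxidant and detoxification genes were higher in 15 of 24 tested and lower in 4 (median 3.75). Gpx3, a secreted glutathione peroxidase, was at 1770.1 and 1924 CPM in muscle, against 11.3 and 6.65 CPM in MEFs (log2 7.69 ± 0.60, adjusted p = 0.000103). Sod3, the extracellular superoxide dismutase, was at 188 and 163 CPM in muscle, against 8.58 and 8.65 CPM in MEFs (log2 4.35 ± 0.29, adjusted p = 6.58e-05). Gstm1, a glutathione transferase, was at 555 and 581 CPM in muscle, against 28.1 and 33.8 CPM in MEFs (log2 4.20 ± 0.41, adjusted p = 0.000244). Muscle and MEF libraries did not overlap in these genes. Nqo1, a quinone reductase, was lower at 1.34 and 1.29 CPM in muscle, against 30.9 and 37.4 CPM in MEFs (log2 -4.69 ± 0.32, adjusted p = 6.88e-05), and Cyp1b1, a cytochrome P450, at 9.12 and 12.01 CPM in muscle, against 73.3 and 54.5 CPM in MEFs (log2 -2.59 ± 0.35, adjusted p = 0.000919). Hmox1, heme oxygenase 1, was at 70.9 and 70.7 CPM in muscle, against 43.4 and 59.5 CPM in MEFs and did not pass (log2 0.46, adjusted p = 0.224).

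To see where the muscle cells stood apart from FAP+ cells in general, muscle was tested against the mean of adipose and pancreas FAP+ cells in the same fit. That contrast also tests the difference between the muscle effect against MEFs and the mean of the other effects, since the MEF libraries cancel. Of 14847 genes 3.06% were called, 264 (1.78%) higher and 191 (1.29%) lower in muscle. The lists with the most members called were tendon genes, with 11 of 18 higher and none lower (median 3.66), and limb factors, with 16 of 33 higher and 1 lower (median 1.55), beside a median of 0.00 over all genes. These counts depended on single libraries, with 78 genes higher and 12 lower without the first muscle library, 83 and 26 without the second, and 1633 and 1622 without the second adipose library. Without a MEF or pancreas library they were 108 to 171 higher and 53 to 92 lower, and without the first adipose library 441 higher and 391 lower. Sex-linked transcripts moved with this contrast, since pancreas FAP+ cells held Ddx3y at 0 and 0 CPM and Xist at 144 and 216 CPM, and their part was not tested.

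The tendon genes above the other FAP+ cells included genes higher than, lower than and not called against MEFs. Thbs4 was at 242 and 196 CPM in muscle, against 1.14 and 1.34 CPM in adipose and 2.66 and 4.68 CPM in pancreas (log2 6.67 ± 0.29, adjusted p = 8.21e-05). Comp was at 119 and 57.9 CPM in muscle, against 0.686 and 0.730 CPM in adipose and 1.09 and 1.45 CPM in pancreas (log2 6.53 ± 0.36, adjusted p = 0.000315), and Tnmd at 25.8 and 19.9 CPM in muscle, against 4.19 and 3.33 CPM in adipose and 0.0521 and 0 CPM in pancreas (log2 6.06 ± 0.41, adjusted p = 0.000652). Angptl7, an angiopoietin-like protein of tendon, was at 48.9 and 86.3 CPM in muscle, against 0.381 and 1.38 CPM in adipose and 2.97 and 5.09 CPM in pancreas (log2 5.11 ± 0.46, adjusted p = 0.0018). No adipose or pancreas library reached a muscle library in these genes. Myofibre markers summed to 96.1 and 117 CPM in muscle, against 179 and 72.5 CPM in adipose and 107 and 88.6 CPM in pancreas FAP+ cells, so the muscle sums lay within the range of the others. By member, 5 of 16 were higher and 1 lower in muscle, with a median of 1.36, and their part in the tendon and limb genes was not tested. Col11a1, lower than in MEFs, was higher than in the other FAP+ cells (log2 4.55 ± 0.41, adjusted p = 0.0018), though not on the RPKM scale or with a pseudocount of 1 FPKM (adjusted p = 0.0962 to 0.427), and so was Col12a1 (log2 1.85 ± 0.29, adjusted p = 0.0168), the call of which was lost without either muscle library (adjusted p = 0.153 and 0.175).

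Limb factors were higher in the same contrast. Tbx5, which specifies the forelimb, was at 29.2 and 29.6 CPM in muscle, against 0.152 and 0.122 CPM in adipose and 0.261 and 0.208 CPM in pancreas (log2 7.33 ± 0.48, adjusted p = 0.000613), and Tbx4, which acts in the hindlimb, at 10.7 and 15.6 CPM in muscle, against 0 and 0.0811 CPM in adipose and 0.104 and 0.312 CPM in pancreas (log2 6.89 ± 0.48, adjusted p = 0.000675). Tbx15 was at 27.4 and 29.04 CPM in muscle, against 0.152 and 0.0811 CPM in adipose and 0.469 and 0.416 CPM in pancreas (log2 6.97 ± 0.29, adjusted p = 7.97e-05). Pitx1, a hindlimb factor, was at 27.04 and 14.3 CPM in muscle, against 0.457 and 0.122 CPM in adipose and 1.62 and 0.572 CPM in pancreas (log2 5.28 ± 0.51, adjusted p = 0.00215). Each muscle library thus held factors of forelimb and hindlimb together. Hoxc10, a Hox gene of the hindlimb, was at 14.5 and 13.7 CPM in muscle, against 0.686 and 0.0811 CPM in adipose and 0.104 and 0 CPM in pancreas (log2 6.66 ± 0.76, adjusted p = 0.00426), short of the threshold without the first muscle library (adjusted p = 0.0552), and Shox2 at 47.01 and 57.01 CPM in muscle, against 0.534 and 0.365 CPM in adipose and 1.67 and 1.71 CPM in pancreas (log2 5.91 ± 0.41, adjusted p = 0.000678).

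Genes lower in muscle than in the other FAP+ cells included factors of visceral mesenchyme. Tcf21, a factor of visceral organ mesenchyme, was at 0.128 and 0 CPM in muscle, against 846 and 335 CPM in adipose and 131 and 110.2 CPM in pancreas, and Wt1, a factor of mesothelium, at 0.0638 and 0.0858 CPM in muscle, against 64.3 and 92.6 CPM in adipose and 19.2 and 14.1 CPM in pancreas. With 2 and 3 fragments in muscle, no fitted fold is given, and the counting ratios of muscle over the other FAP+ cells were 0.000163 (exact 95% interval 1.97e-05 to 0.000588) for Tcf21 and 0.00156 (0.000321 to 0.00455) for Wt1, covering counting error only. Rspo1, an enhancer of Wnt signalling, was at 1.40 and 2.19 CPM in muscle, against 139 and 67.1 CPM in adipose and 30.2 and 23.1 CPM in pancreas (log2 -4.85 ± 0.45, adjusted p = 0.00213). These genes did not overlap between muscle and the other FAP+ groups. Slit2 was lower in muscle than in the other FAP+ cells too (log2 -5.06 ± 0.64, adjusted p = 0.00676), but not without either muscle library (adjusted p = 0.123 and 0.130) or on the FPKM scale (adjusted p = 0.059 to 0.141).

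Marker lists of other cell types measured what the sort may have carried along. Summed over 14 leukocyte markers, muscle held 3.89 and 3.52 CPM, against 2.88 and 3.52 CPM in MEFs, and Tyrobp, a signalling adaptor of myeloid cells, had no fragment in either group. Myofibre markers summed to 96.1 and 117 CPM in muscle and 66.2 and 68.4 CPM in MEFs, with 8 of 16 tested higher. Satellite cell and myoblast markers summed to 186 and 185 CPM in muscle and 33.8 and 62.4 CPM in MEFs. Nearly all of that sum was Dag1, dystroglycan, at 172 and 165 CPM in muscle, against 31.5 and 60.6 CPM in MEFs, while the defining factor Pax7, chosen after its values were seen, was at 0.0638 and 0.472 CPM in muscle, against 0 and 0 CPM in MEFs.

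Vessel and blood markers differed between the muscle libraries. Endothelial markers were higher in 10 of 13, with sums of 130 and 265 CPM in muscle and 38.2 and 40.0 CPM in MEFs. Without Tek, which the progenitor list also holds, the sums were 44.1 and 164 CPM in muscle and 37.3 and 39.5 CPM in MEFs. The second muscle library thus held the larger part, and its part in Col4a4, Cxcl14 or other genes higher in that library was not tested. Erythroid markers summed to 70.3 and 111 CPM in muscle and 1.05 and 0.637 CPM in MEFs, mostly the globin gene Hba-a2 at 59.4 and 94.2 CPM in muscle, against 0.300 and 0 CPM in MEFs. Pericyte and smooth muscle markers summed to 156 and 220 CPM in muscle and 1586 and 1389 CPM in MEFs. By member the direction differed from the sum, with 5 of 12 higher and 3 lower in muscle (median log2 1.59). Adipocyte markers summed to 2.17 and 1.67 CPM in muscle and 0.990 and 0.607 CPM in MEFs, with the lipid droplet gene Cidec at 0 in muscle, which allows up to 0.191 and 0.129 CPM. Schwann cell markers summed to 74.8 and 84.0 CPM in muscle and 173 and 190 CPM in MEFs, perineurial markers to 27.6 and 35.3 CPM in muscle and 143 and 122 CPM in MEFs. By member, 1 of 8 Schwann cell markers was higher and 1 lower (median log2 1.53). Of 6 perineurial markers, 2 were higher and 2 lower (median log2 0.95), so these sums did not follow the typical member. Epithelial markers summed to 7.65 and 5.32 CPM in muscle and 46.4 and 64.2 CPM in MEFs.

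**Figure D4:**
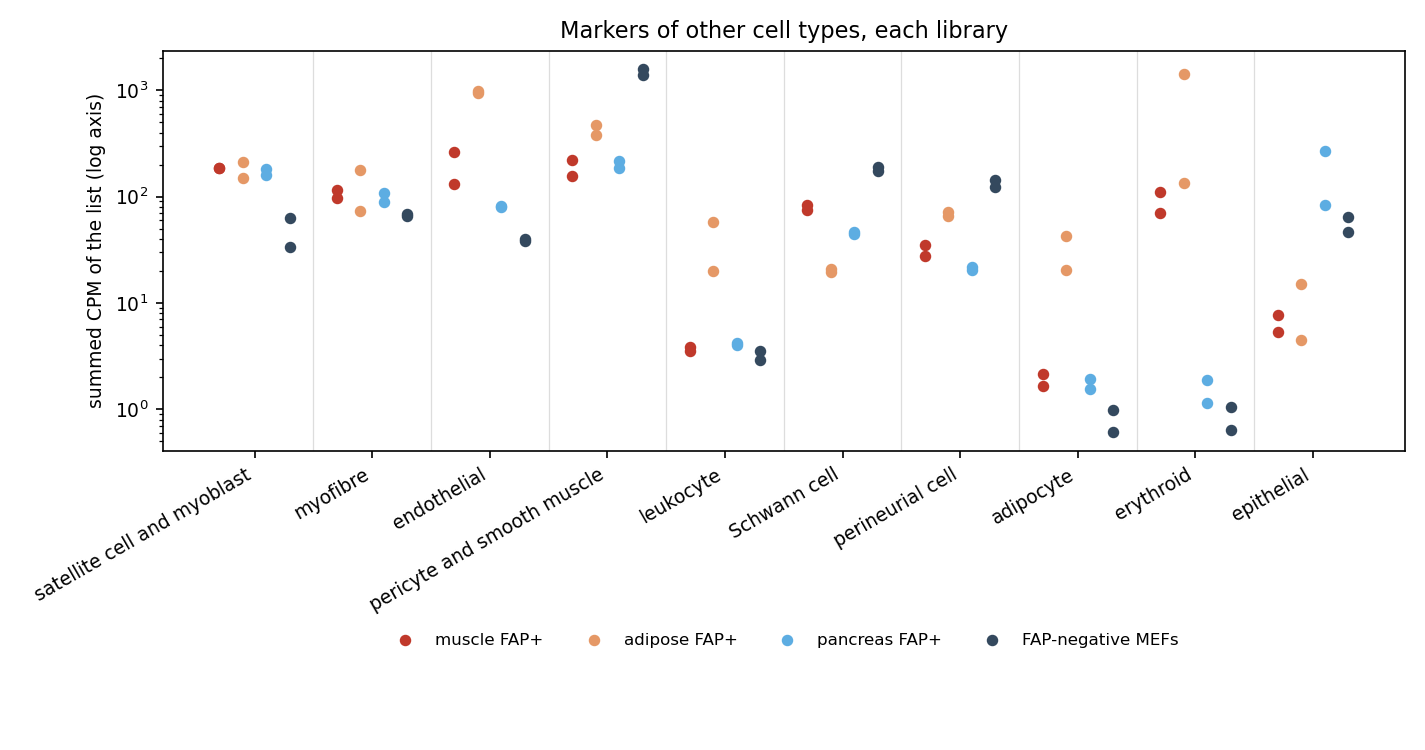
Summed CPM of marker lists of other cell types on a log axis, with each point a library, in the order muscle, adipose and pancreas FAP+ cells and MEFs. Leukocyte markers in muscle sum to 3.89 and 3.52 CPM, and endothelial markers differ between the muscle libraries, at 130 and 265 CPM.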

How the data were processed

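RNA from sorted cells was amplified from poly(A) tails (MessageAmp), per the labels' protocols, so levels of different genes are compared with care. The build listed is mm9, and TopHat2, Bowtie2, HTSeq and edgeR are the tools listed, without versions or roles, per the submitters' processing notes. The authors deposited estimated counts (bias-adjusted fragments) for 22558 genes, with matching FPKM, and RPKM for 22609 genes; whether counting used strand, and the adjusting program, are not given in the sources used here. Of the columns in each deposited file, 6 match no sample and were not used. Estimated counts were rounded, since whole counts had been planned for, and tested with edgeR 4.0.16 (quasi-likelihood, TMM, filterByExpr, all 8 libraries, Benjamini-Hochberg 0.05) in R 4.3.3, after a check on simulated data. DESeq2 1.42.0, and limma 3.58.1 on log2(FPKM or RPKM + a pseudocount of 1 or 0.1), served as alternatives, as did whole reads recovered from RPKM steps for 20965 genes within a tolerance of 0.01. Of 161 genes named, 155 follow a rule: listed genes of interest, up to 2 further called members of a list in each direction by fold with at least 10 CPM in the higher group, the 10 largest changes in each direction against MEFs, the 8 largest against the other FAP+ cells, and abundant or absent markers of other cell types. Ddx3y, E2f1, E2f2, Mcm6, Pax7 and Xist were chosen after their values were seen. Some genes the rule takes are not reported here. Members and lists were chosen with earlier results of these data known. Hba-a2, Gstm1 and Ly6a have near-identical relatives, and Mest an antisense neighbour, so their counts may be shared. Whether same-numbered libraries deviated together was checked, and no block was used, since not all pairs of groups did. Intervals cover counting error only.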

Additional observations from a re-analysis of the deposited data

Results flagged for a closer look

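Genes named above are listed here where the muscle effect against MEFs differed from the mean effect of adipose and pancreas FAP+ cells, tested in the same fit at an adjusted p of 0.05. Values are log2 fold changes of muscle over those cells. Among genes of tendon and cartilage they were 6.67 for Thbs4, 6.53 for Comp, 6.21 for Chad, 6.06 for Tnmd, 5.11 for Angptl7, 4.55 for Col11a1, 2.78 for Matn4, 2.50 for Fmod and 1.85 for Col12a1. Among limb factors they were 7.33 for Tbx5, 6.97 for Tbx15, 6.89 for Tbx4, 6.66 for Hoxc10, 5.91 for Shox2, 5.28 for Pitx1, 2.91 for Meox2, 2.26 for Msx1 and 1.72 for Foxd1, and 2.21 for the bone factor Runx2.

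Of secreted factors and surface proteins, Itgb7 was at 6.34, Dkk2 at 3.48, Wnt2 at 3.18, Cxcl14 at 2.93, Apod at 2.53, Igf2 at 1.64 and Ntn1 at 1.21. The Y-linked Ddx3y was at 6.37, with no fragment in pancreas. Its adipose libraries, at 17.4 and 47.1 CPM, lay on either side of the muscle libraries, at 34.1 and 35.9 CPM.

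Lower in muscle were Slit2 at -5.06, Rspo1 at -4.85, Ankrd1 at -3.55, Pparg at -2.40, Cyp1b1 at -2.35, Cdkn2b at -2.16, Adam12 at -2.03 and Gdf10 at -1.86. For Adam12 only adipose lay above muscle. It was at 3.25 and 2.49 CPM in muscle, 48.3 and 46.5 CPM in adipose and 2.66 and 3.07 CPM in pancreas. The counting ratio of muscle over the other FAP+ cells was 0.000163 for Tcf21 and 0.00156 for Wt1.

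Of the 37 calls 21 were lost under at least 1 alternative. The calls of Adam12, Ankrd1, Apod, Cdkn2b, Chad, Col12a1, Cxcl14, Cyp1b1, Fmod, Foxd1, Gdf10, Hoxc10, Igf2, Matn4, Msx1, Ntn1, Pparg and Slit2 were lost when a muscle library was left out, and those of Col11a1, Ddx3y and Runx2 on the FPKM scale. With 2 libraries a group, no test for a single outlying library applies.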

How the results depend on the processing

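Of 136 genes named and called against MEFs, 117 kept their call and direction under each of the 21 alternatives run on them, and 19 lost it under at least 1. Of 37 named and called against the other FAP+ cells, 16 kept the call and 21 lost it. Losses against MEFs on the FPKM scale included Cdkn1c, Dag1, Ndn, Osr1, Sema3c and Meox2. None of these called genes changed direction in those runs. Against MEFs the counts of genes higher and lower were 3524 and 2976, and 2171 genes were higher with log2(FPKM + 1), 1623 with a minimum of 1 FPKM, and 2081 higher and 5402 lower with RPKM. Recovered reads called 4186 higher and 3809 lower, and the groups compared alone 4461 and 4168. Leaving out 1 library at a time gave 2115 to 4689 higher and 1267 to 4310 lower, the lowest without the second muscle library. Against adipose and pancreas FAP+ cells the counts were 264 higher and 191 lower, and 458 and 586 with DESeq2, 421 and 318 with recovered reads, 369 lower with RPKM, and 107 lower with the groups compared alone. Leaving out 1 library at a time gave 78 to 1633 higher and 12 to 1622 lower. The lowest came without the first muscle library and the highest without the second adipose library. The cause was not tested. Where a group kept 1 library, it was assumed to vary like the others.

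Of 15 named genes not called against MEFs, 13 gained a call under at least 1 alternative. With the groups compared alone 8 gained it, and with recovered reads 7. Lack of a call in the main fit thus depended on the processing too. In direction, Bmp4 turned to log2 -0.0875 to -0.0895 and Hmox1 to -0.149 to -0.152 on the FPKM scale. E2f1 turned to 0.0218 with upper quartile factors, 0.0401 with the stricter filter and 0.0864 with recovered reads, and lay between -0.24 and 0.17 without 1 library. Fosl1 turned to 0.44 with recovered reads, and Inhba lay between -2.76 and 0.91 without 1 library.

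With the replicate number as a block, 3536 genes were higher and 2892 lower against MEFs, and 232 and 159 against the other FAP+ cells. Replicate deviations correlated at -0.12 between MEF and muscle libraries, 0.21 between muscle and adipose, 0.05 between muscle and pancreas and 0.45 between adipose and pancreas, and the labels give no shared batch. The numbers were not taken to pair the libraries, and a crossed block, added after seeing the data, called 3722 higher and 3221 lower. Depth limited genes near 0.191 and 0.129 CPM in muscle.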
